A study of Mus musculus with 8 samples.

Results

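The levels of 9 long noncoding RNA (lncRNA) genes were followed across depletion of HIRA subunits in mouse embryonic stem cells (ESCs). They are Malat1 and Neat1, the ESC transcripts Lncenc1, Platr15 and Platr3, and the small nucleolar RNA (snoRNA) host genes Gas5, Snhg1, Snhg3 and Dancr. These 9 genes, of 55418 in the count tables, were listed by name and chosen by their measured levels in these same libraries, as abundant or typical of ESCs, with their differences between conditions also in view. Their levels are therefore given as a description with no test, and p-values of differences between conditions are not independent evidence. Neat1 was 1.94-fold higher than in control cells after Hira depletion and 1.56-fold lower after Ubn2 depletion, whereas its chromosomal neighbour Malat1 stood lower in the first, by an amount that depended on 1 library, and higher in the second. Lncenc1 levels were below control after Hira depletion and above control after Ubn1 and Ubn2 depletion. None of these Malat1 and Lncenc1 differences from control reached 1.5-fold. Platr15, a rare transcript in control cells, was 5.87-fold higher after Ubn1 depletion.

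The libraries came from E14 ESCs of the strain written 12910la in the labels, grown on gelatin in serum with LIF. All 4 groups of 2 libraries received 1000 ng of the pSuper puro plasmid and, from 24 h later, puromycin at 1 µg/ml for 3 days, as the labels give it, while the study's methods state a slightly different dose and start. The plasmid carried an shRNA against Hira, Ubn1 or Ubn2 in the 3 depletions and, per the study's text, an shRNA against luciferase in control cells, which the labels call wild type. The cells were of 1 line with no clonal selection described, and the labels do not say whether the 2 libraries of a group came from separate cultures, so p-values measure only the spread between these libraries.

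Counts on genes totalled 19710040 to 32706053 per library. The targeted transcripts were depleted in their own groups, with Hira at 10.8%, Ubn1 at 49.0% and Ubn2 at 53.8% of the control level in the fit. All 16 ESC markers examined were detected in each group. Their summed level was 8173 to 8559 CPM (counts-per-million) in control cells and lower without overlap in the depletions, at 7326 to 7661 CPM for Hira, 7637 to 7782 CPM for Ubn1 and 7461 to 7592 CPM for Ubn2. Of the 16, 1 was called lower after Hira depletion, against 16.2% of all genes called in either direction. After Ubn2 depletion 3 were called higher and 4 lower, against 18.3%. A call needed an adjusted p below 0.05 and more than 1.5-fold change, as set out below. By log2 fold change, 7, 9 and 8 of the 16 stood above control after Hira, Ubn1 and Ubn2 depletion. The lower sums were thus not shared by all markers. Markers of other cell types moved with some groups. The summed level of 7 neural markers was 220 to 235 CPM after Hira depletion against 116 to 121 CPM in control cells, and that of 7 trophoblast markers was 114 to 139 CPM against 71.3 to 72.6 CPM. The sum of 7 heart muscle markers was 178 to 271 CPM after Ubn2 depletion against 20.02 to 21.52 CPM in control cells. Neurog2 was at 0 in both control libraries, Neurog1, Neurog2 and Elf5 were each at 0 in 1 Hira library and Cdx2 in 1 control library, and no heart muscle marker was at 0 in any control or Ubn2 library. After Ubn1 depletion the neural sum was 158 to 177 CPM. The sum of 8 markers of two-cell-like cells was 3.49 to 6.91 CPM in control cells, 17.6 to 23.4 CPM after Hira, 13.2 to 14.2 CPM after Ubn1 and 23.9 to 33.2 CPM after Ubn2 depletion, with Tcstv1 at 0 in both libraries of control cells and of Ubn2 depletion. The sum of 7 fibroblast markers was 24.5 to 25.6 CPM in control cells, 34.5 to 36.0 CPM after Hira, 19.0 to 23.3 CPM after Ubn1 and 23.4 to 26.0 CPM after Ubn2 depletion, and Postn, Lum and Dcn were at 0 in every library but those of Ubn2 depletion. The sum of 7 primitive endoderm markers was 14.8 to 17.1 CPM in control cells, 9.17 to 10.9 CPM after Ubn1 depletion and 14.5 to 16.9 CPM in the other depletions. Gata6 and Pdgfra were called lower after Ubn1 depletion, where 3.09% of all genes were called. The part of these cells in the values that follow was not tested. In bulk RNA, fewer cells of a type and less RNA per cell cannot be told apart.

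Most nucleosomes are built from canonical histones when DNA is copied, whereas H3.3 is supplied throughout the cell cycle, in part by the HIRA complex. Hira is its scaffold subunit, and the ubinucleins Ubn1 and Ubn2 are related subunits that bind H3.3. Malat1 is retained in nuclear speckles beside splicing factors. Neat1 is the RNA scaffold of paraspeckles, nuclear bodies built around its long isoform and proteins such as Nono, Sfpq and Pspc1. Lncenc1 and the Platr (pluripotency associated transcript) genes were described in mouse ESCs. Gas5, Snhg1, Snhg3 and Dancr carry snoRNAs in their introns, which are released after splicing, and the spliced RNA of hosts such as Gas5 is a known substrate of nonsense-mediated decay.

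Malat1 and Neat1 are single-exon annotations on the minus strand of chromosome 19, at chr19:5795690-5802672 and chr19:5824708-5845478 of GRCm38, with 22036 bases between them. The longest run of adenines in the full-length transcript of each is shown in capitals with 20 bases on either side, read 5′ to 3′ from GENCODE release M21, because both RNAs are long nuclear transcripts read here through an mRNA library kit. Mature Malat1 is cleaved by RNase P and ends in an encoded A-rich tract instead of a usual poly(A) tail. Its longest run has 12 adenines, and the stretch shown with its flanks spans chr19:5795968-5796019, bases 6654 to 6705 of the 6983-base transcript. The longest run in Neat1 has 7 adenines, and the stretch shown with its flanks spans chr19:5835914-5835960, bases 9519 to 9565 of the 20771-base long isoform. This run is internal, and the annotated end of the long isoform is A-rich too. Counts are per gene, so the long isoform of Neat1 was not told apart from the shorter ones. The effect of library capture on either RNA was not tested.
Malat1: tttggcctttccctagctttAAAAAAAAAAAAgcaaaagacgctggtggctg
Neat1: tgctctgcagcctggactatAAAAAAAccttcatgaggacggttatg

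The start of Platr15 is shown because this transcript had the largest difference among the 9 genes, and it is known here from 3 exons of 768 bases in all. The first 100 bases of its first exon lie at chr2:150706777-150706876 on the minus strand of GRCm38 and are read from GENCODE release M21. No base is capitalised, since no motif was sought in it.
Platr15: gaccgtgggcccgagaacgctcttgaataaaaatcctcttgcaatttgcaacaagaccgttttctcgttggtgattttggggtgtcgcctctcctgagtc

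Transcripts of growth-regulated snoRNA hosts often begin with a C and a run of pyrimidines, the terminal oligopyrimidine motif. The starts of the 4 host genes are shown from 10 bases before to 30 bases from the annotated first base (RefSeq, GRCm38.p6), with any pyrimidine run at the first base in capitals. They lie at chr1:161035156-161035195 on the plus strand for Gas5, chr19:8723477-8723516 on the plus strand for Snhg1, chr4:132353657-132353696 on the minus strand for Snhg3 and chr5:74093050-74093089 on the plus strand for Dancr. Among the 4 hosts, only this start of Gas5, which has another in RefSeq without a run, met a search for a C followed by 3 bases that are each C or T, read on the strand of the gene. The same was true of 3.76% of 32851 RefSeq promoter entries. RefSeq entries were found for 7 of the 9 genes.
Gas5: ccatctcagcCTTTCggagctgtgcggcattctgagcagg
Snhg1: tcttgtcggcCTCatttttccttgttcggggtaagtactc
Snhg3: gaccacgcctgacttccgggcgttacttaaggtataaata
Dancr: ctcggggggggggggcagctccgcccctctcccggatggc

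In control cells the 9 genes spanned a wide range of levels. Per kilobase of annotated exon, control levels were 89.9 ± 5.56 CPM for Lncenc1, 60.3 ± 5.98 for Gas5, 45.8 ± 1.76 for Malat1 and 42.5 ± 6.46 for Snhg3 (SD, n = 2 for each here and below). They were 29.7 ± 0.919 for Platr3, 26.0 ± 2.22 for Snhg1, 10.2 ± 0.340 for Neat1, 6.51 ± 0.319 for Dancr and 0.622 ± 0.162 for Platr15. The libraries of Malat1 and Snhg3 overlapped in this order and all other neighbours were apart. Exon lengths merge all annotated isoforms, including retained introns of Gas5, Snhg1 and Dancr and the long isoform of Neat1, which lowers these per-kilobase levels where the shorter isoforms dominate. By CPM alone, Malat1, Lncenc1, Gas5 and Neat1 stood above 98.4%, 98.2%, 97.3% and 97.1% of the 28358 genes with a control count. Snhg1, Snhg3, Dancr and Platr3 stood above 89.4%, 81.8%, 68.3% and 65.9%, and Platr15 above 37.7%, so that the word abundant did not describe Platr15. After Hira depletion Lncenc1 (66.9 ± 1.61) and Gas5 (61.8 ± 10.0) overlapped at the top of the order per kilobase, and Snhg3 (39.2 ± 1.89), Malat1 (36.1 ± 6.79) and Snhg1 (36.0 ± 7.19) overlapped each other. After Ubn1 depletion Lncenc1 (116 ± 9.02) stood alone at the top, and Gas5 (54.4 ± 7.68) and Malat1 (50.2 ± 3.71) overlapped. After Ubn2 depletion Lncenc1 (117 ± 0.404) and Malat1 (64.6 ± 2.17) led, and Neat1 (6.55 ± 0.155) stood beside Dancr (6.97 ± 0.453) with overlap. No other cell type was sequenced, so enrichment in ESCs was not examined.

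**Figure D1:**
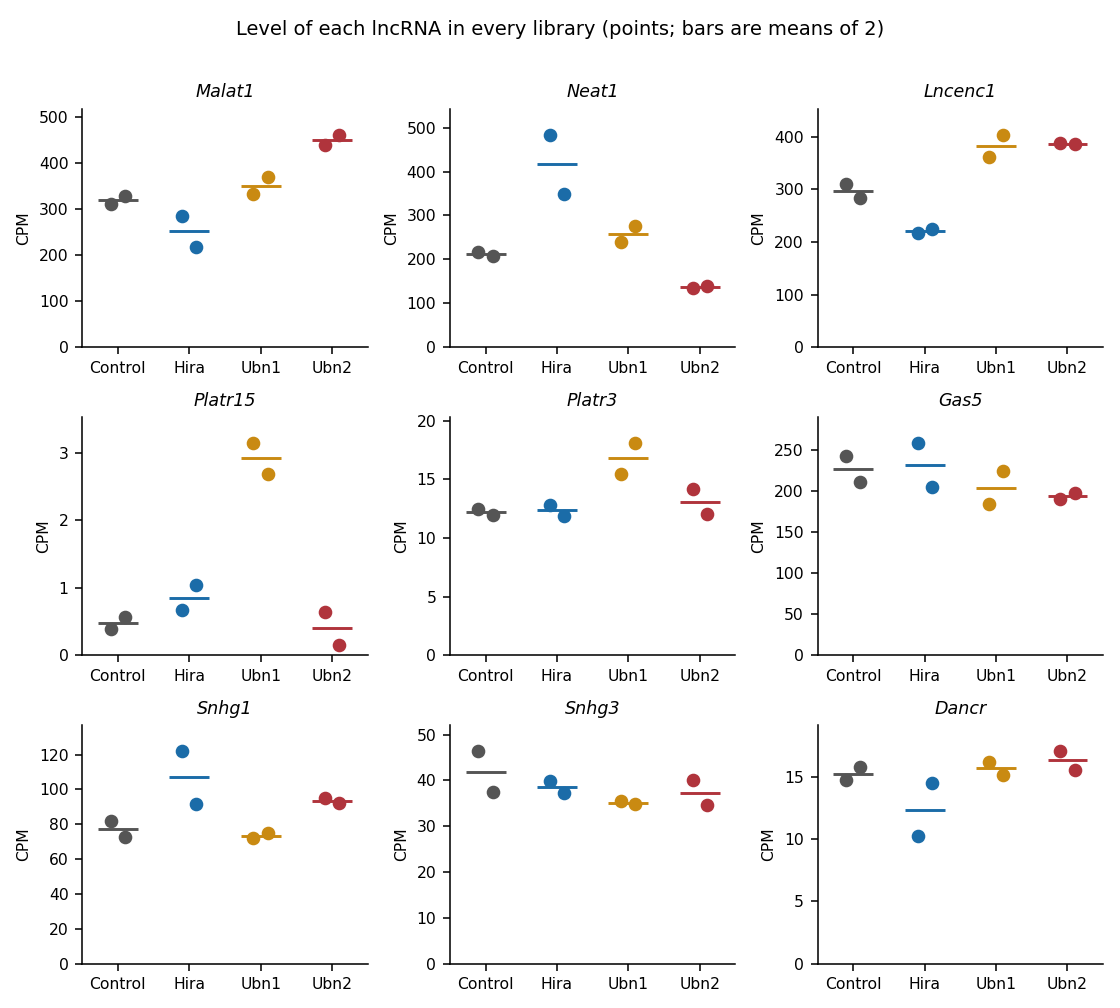
Level of each of the 9 lncRNA genes in CPM (vertical axis, from 0) in the control group and after Hira, Ubn1 and Ubn2 depletion; points are libraries and bars are means of 2. Neat1 was highest in Hira-depleted cells (484 and 349 CPM) and lowest after Ubn2 depletion (134 and 138 CPM), and Platr15 was highest after Ubn1 depletion (3.15 and 2.69 CPM).

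Which lncRNAs differed with depletion of each subunit was examined by comparing each depletion with the same 2 control libraries, so the 3 comparisons are not independent of each other. A call required an adjusted p below 0.05 (edgeR quasi-likelihood test, Benjamini-Hochberg over all genes tested) and more than 1.5-fold change. After Hira depletion 1 of the 9 genes was called, against 16.2% of 19035 genes tested. After Ubn1 depletion 1 of 9 was called, against 3.09% of 18373 genes. After Ubn2 depletion 1 of 9 was called, against 18.3% of 18219 genes. The called genes were Neat1, Platr15 and Neat1 in turn. Among annotated lncRNA genes the shares were 13.6%, 3.05% and 19%. By adjusted p alone 4, 3 and 5 of the 9 genes passed, against 34.9%, 7.76% and 39.1% of all genes. The libraries of a depletion did not overlap those of control for 6, 6 and 5 of the 9 genes, against 67%, 51.3% and 69.6%. As the genes were chosen with these contrasts known, nothing is read from these shares. Median log2 fold changes of the 9 genes were 0.0058, 0.13 and 0.095, and those of all genes tested were 0.011, -0.0024 and -0.0041.

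**Figure D2:**
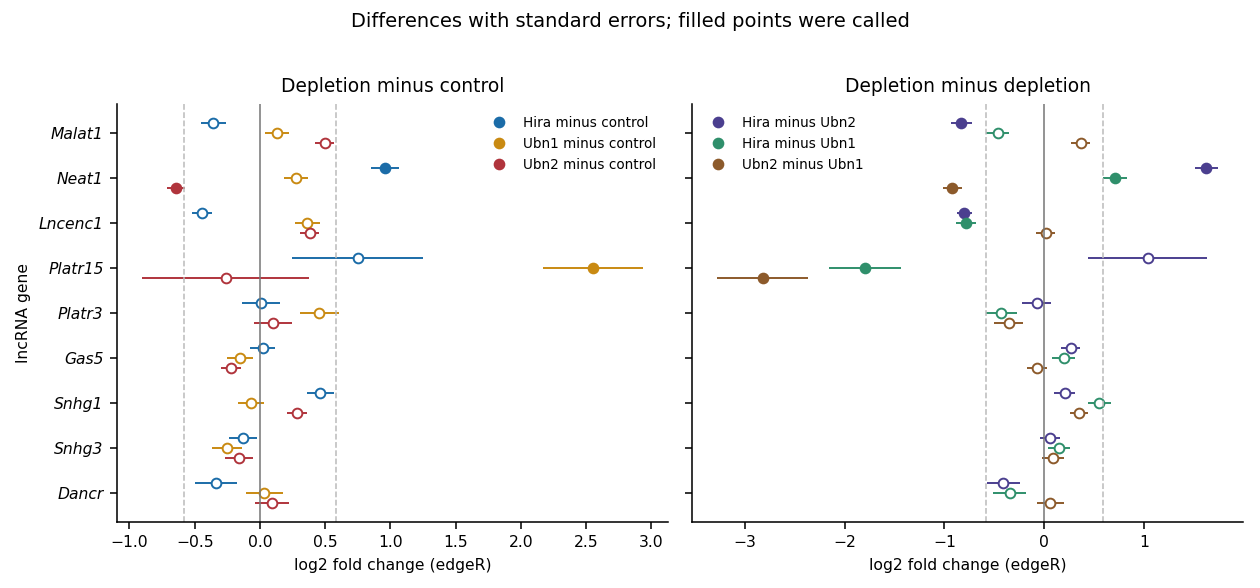
Log2 fold change of each of the 9 genes with its standard error (horizontal axis), for the 3 depletions against control on the left and between depletions on the right; filled points were called and dashed lines mark 1.5-fold. Neat1 lay at 0.96 after Hira and at -0.64 after Ubn2 depletion, and Platr15 at 2.55 after Ubn1 depletion.

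Neat1 stood at 217 and 207 CPM in the control libraries. It was at 484 and 349 CPM in Hira-depleted, 239 and 275 CPM in Ubn1-depleted and 134 and 138 CPM in Ubn2-depleted cells. The groups did not overlap, and the order from low to high was Ubn2 depletion, control, Ubn1 depletion and Hira depletion. Like the other listed genes, Neat1 was chosen with its differences between conditions in view. The p-values of these genes, here and below, are therefore descriptions and not independent evidence. Against control, Neat1 rose by 0.96 on the log2 scale in Hira-depleted cells (SE 0.11, adjusted p = 7.36e-07). Its log2 fold change in Ubn2-depleted cells was -0.64 (SE 0.07, adjusted p = 2.4e-07), a fall past both thresholds. The difference of 0.28 after Ubn1 depletion (SE 0.09, adjusted p = 0.0637) did not pass. The Hira libraries lay 0.47 log2 units apart, more than for 83.6% of genes, and each was above every other library.

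Malat1 stood at 311 and 328 CPM in control cells. It was at 285 and 218 CPM in Hira-depleted, 332 and 369 CPM in Ubn1-depleted and 441 and 462 CPM in Ubn2-depleted cells. Hira libraries were thus the lowest and Ubn2 libraries the highest, with no overlap between groups. The log2 fold changes against control were -0.36 after Hira depletion (SE 0.10, adjusted p = 0.00597), 0.13 after Ubn1 depletion (SE 0.09, adjusted p = 0.428) and 0.50 after Ubn2 depletion (SE 0.07, adjusted p = 1.14e-05). The first and the last passed the p threshold and none reached 1.5-fold. The value after Hira depletion depended on 1 library, at -0.57 without Hira replicate 1 and -0.18 with an adjusted p of 0.0981 without Hira replicate 2.

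Because Neat1 and Malat1 are counted in the same library, their ratio does not depend on scaling. There were 0.699 and 0.631 Neat1 reads per Malat1 read in control cells and 0.720 and 0.746 after Ubn1 depletion. The ratio was 1.70 and 1.60 in Hira-depleted cells and 0.304 and 0.299 in Ubn2-depleted cells. Hira libraries were therefore far above and Ubn2 libraries below all others, and the spread within each pair was small beside these gaps. The ratio shows unequal change of the neighbours and not which of them moved. Neat1 reads per Lncenc1 read ordered the groups in the same way at the extremes, with 2.23 and 1.55 after Hira depletion, 0.701 and 0.730 in control cells, 0.661 and 0.681 in Ubn1-depleted and 0.345 and 0.359 in Ubn2-depleted cells.

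**Figure D3:**
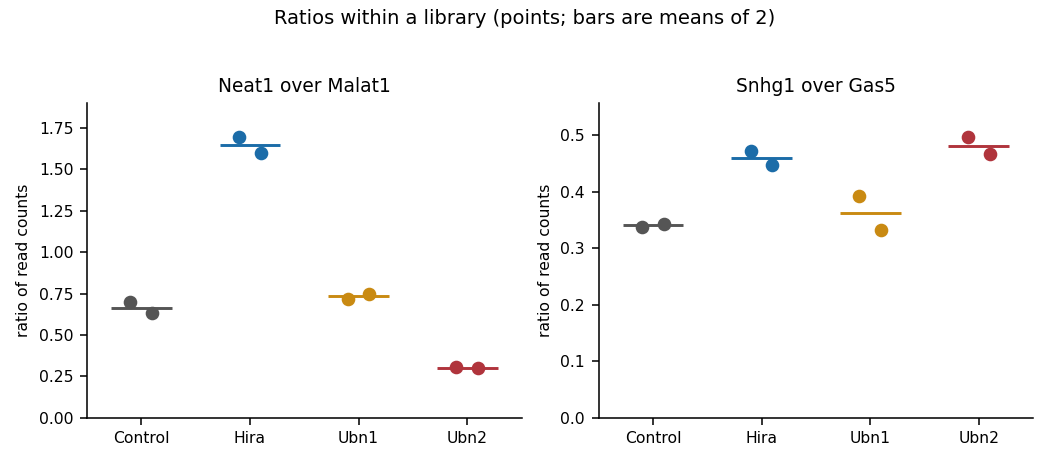
Ratio of read counts within each library (vertical axes, from 0) for Neat1 over Malat1 on the left and Snhg1 over Gas5 on the right, by group; points are libraries and bars are means of 2. Neat1 over Malat1 was 1.70 and 1.60 in Hira-depleted and 0.304 and 0.299 in Ubn2-depleted cells, and Snhg1 over Gas5 was above control in both of these groups.

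Depletions were also compared with each other directly, which uses no control library. Between Hira and Ubn2 depletion 3 of the 9 genes were called, against 17.6% of genes tested. Between Hira and Ubn1 depletion 3 were called, against 12.7%. Between Ubn2 and Ubn1 depletion 2 were called, against 8.7%. Neat1 was in all 3 sets and was 3.08-fold higher after Hira than after Ubn2 depletion (log2 fold change 1.62, SE 0.12, adjusted p = 2.75e-07). It was 1.63-fold higher after Hira than after Ubn1 depletion (log2 fold change 0.71, SE 0.12, adjusted p = 0.000112) and 1.89-fold lower after Ubn2 than after Ubn1 depletion (log2 fold change -0.92, SE 0.09, adjusted p = 5.21e-06). Without Hira replicate 1, the higher of the pair, the difference between Hira and Ubn1 depletion was 0.45 with an adjusted p of 0.0157 and was no longer called for size. Malat1 was 1.78-fold lower after Hira than after Ubn2 depletion (log2 fold change -0.83, SE 0.10, adjusted p = 3.57e-05). For Malat1 the other pairs differed by -0.47 between Hira and Ubn1 depletion (SE 0.11, adjusted p = 0.00349) and by 0.36 between Ubn2 and Ubn1 depletion (SE 0.10, adjusted p = 0.0154), below 1.5-fold. Without Hira replicate 1, the former became -0.67 and was called.

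Short annotations inside Neat1 and Malat1 were counted as genes of their own. Gm27533, Gm27505 and Gm28006 are annotated fragments of 152, 110 and 122 bases that lie wholly within Neat1, on its strand, 1041, 731 and 441 bases from its 5′ end. Both isoforms of Neat1 include this 5′ region. Gm27533 was at 43.0 and 43.6 CPM in control cells, 101 and 73.5 CPM in Hira-depleted, 52.1 and 59.4 CPM in Ubn1-depleted and 27.4 and 26.7 CPM in Ubn2-depleted cells, the same order as for Neat1. It rose by 1.00 on the log2 scale after Hira depletion (SE 0.11, adjusted p = 7.77e-07) and fell by 0.68 after Ubn2 depletion (SE 0.10, adjusted p = 1.11e-05). Gm27505 and Gm28006 were called in the same directions, at 0.84 and 0.93 for Hira and at -1.005 and -0.89 for Ubn2 depletion, and the call of Gm27505 after Hira depletion was lost without Hira replicate 1 (0.55). Reads of these fragments cannot be told apart from those of Neat1, so they are not separate evidence. Within Malat1, the opposite-strand annotation Gm37376 (453 bases) rose by 0.68 after Ubn2 depletion (SE 0.10, adjusted p = 2e-05). The strand setting of the counting was not given in the sources used here, so Gm37376 cannot be told apart from Malat1.

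Genes around Neat1 were called in both directions. Of 40 genes tested within 250 kb of Neat1, Malat1 and the fragments included, 4 were called higher and 4 lower after Hira depletion, against 16.2% of all genes called. The fragments were 3 of the 4 called higher, so Slc25a45 was the only separate gene among them. Of 38 tested after Ubn2 depletion, 7 were called higher and 8 lower, against 18.3% of all genes, with Gm37376 among the former and the 3 fragments among the latter. After Ubn1 depletion edgeR called 0 of 38, against 3.09% of all genes, DESeq2 called 0, and 8 had an unadjusted p under 0.05. Frmd8, the nearest protein-coding gene 4.22 kb upstream of Neat1, had log2 fold changes of 0.34 after Hira depletion (SE 0.08, adjusted p = 0.00217) and 0.57 after Ubn2 depletion (SE 0.08), both below 1.5-fold. Slc25a45, chosen after its values were seen and a member of the mitochondrial carrier family, was higher in both, by 2.32 after Hira depletion (SE 0.34, adjusted p = 2.52e-05) and by 2.09 after Ubn2 depletion (SE 0.37, adjusted p = 0.000139).

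**Figure D4:**
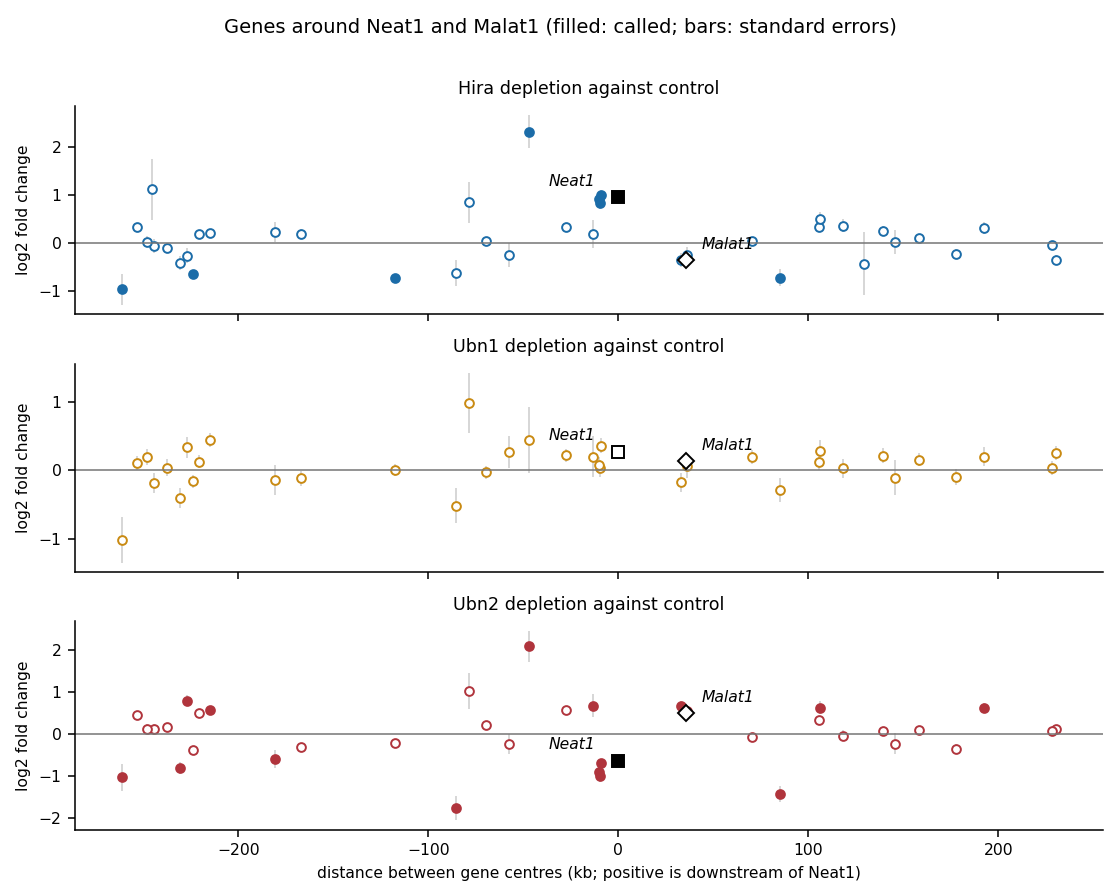
Log2 fold change with standard error (vertical axes) of the genes tested within 250 kb of Neat1 against the distance between gene centres in kb (positive is downstream of Neat1), 1 panel per depletion; the square is Neat1, the diamond is Malat1 and filled symbols were called. The cluster beside the square is the 3 fragments inside Neat1, and Slc25a45 is the highest point in the Hira (2.32) and Ubn2 (2.09) panels.

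Genes of the nuclear bodies that hold these RNAs were examined as lists. Of 17 paraspeckle protein genes, 1 rose and 1 fell after Hira depletion, against 16.2% of all genes called. The median log2 fold change of the 17 was -0.15. Pspc1, a core paraspeckle protein, was at 60.5 to 79.0 CPM in control cells and 123 to 126 CPM after Hira depletion, a log2 fold change of 0.82 (SE 0.10, adjusted p = 1.66e-06). Nono, its partner in the same protein family, was at 545 to 586 CPM in control cells and 318 to 320 CPM after Hira depletion, a log2 fold change of -0.84 (SE 0.07, adjusted p = 5.33e-08). The groups did not overlap for either gene. After Ubn2 depletion only Pspc1 was called, at 0.64 (SE 0.09, adjusted p = 1.31e-05), against 18.3% of all genes. Nono was then at -0.41 and Sfpq, the third member of that family, at 0.51 on the log2 scale, both short of 1.5-fold. Pspc1 was thus higher both where Neat1 was higher and where it was lower. The call of Pspc1 after Ubn2 depletion was lost without control replicate 2, at 0.45. After Ubn1 depletion edgeR and DESeq2 called 0 of the 17 genes, and 6 had an unadjusted p under 0.05. The share of all genes called by edgeR there was 3.09%.

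Of 16 nuclear speckle and SR splicing factor genes, edgeR and DESeq2 called 0 in each of the 3 depletions, with 7, 3 and 6 at an unadjusted p under 0.05 after Hira, Ubn1 and Ubn2 depletion. Their median log2 fold changes were -0.14, 0.055 and 0.086. By sign, 3, 10 and 12 of the 16 genes were above 0. Over all genes the shares called were 16.2%, 3.09% and 18.3%.

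Lncenc1 is a long intergenic RNA of 6 merged exons at chr13:97434970-97497007 on the plus strand. It was at 310 and 284 CPM in control cells. It was at 217 and 224 CPM in Hira-depleted, 362 and 404 CPM in Ubn1-depleted and 387 and 386 CPM in Ubn2-depleted cells. Hira libraries lay below control, Ubn1 and Ubn2 libraries lay above it, and the latter pair of groups overlapped. Log2 fold changes against control were -0.44 (SE 0.08, adjusted p = 0.000112), 0.36 (SE 0.09, adjusted p = 0.013) and 0.38 (SE 0.07, adjusted p = 0.000243) after Hira, Ubn1 and Ubn2 depletion, all past the p threshold and short of 1.5-fold. After Ubn1 depletion the p threshold was missed without control replicate 1 (adjusted p = 0.0946) or control replicate 2 (adjusted p = 0.321).

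Between depletions the opposite signs added up to called differences. Lncenc1 was 1.74-fold lower after Hira than after Ubn2 depletion (log2 fold change -0.80, SE 0.07, adjusted p = 2.75e-06) and 1.72-fold lower than after Ubn1 depletion (-0.79, SE 0.10, adjusted p = 2.57e-06). Between Ubn2 and Ubn1 depletion the difference was 0.01 (SE 0.09, adjusted p = 0.945). Enc1, the nearest tested protein-coding gene 182 kb away and a gene of neural ectoderm, had log2 fold changes of -0.32 after Hira depletion (SE 0.13, adjusted p = 0.0555) and 0.30 after Ubn1 depletion (SE 0.09, adjusted p = 0.0386). It rose by 0.76 after Ubn2 depletion (SE 0.07). The signs were thus those of Lncenc1 in each group.

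Platr15 lies at chr2:150704536-150706876. It had 8 and 18 counts in the control libraries and 22 in each library after Hira depletion. It had 69 and 70 counts after Ubn1 depletion, and after Ubn2 depletion 14 and 3. Scaled for depth, these were 0.389 and 0.566 CPM, 0.666 and 1.04 CPM, 3.15 and 2.69 CPM, and 0.644 and 0.153 CPM. Both Ubn1 libraries stood above every other library, and the Ubn2 libraries overlapped control. At these counts, the exact binomial 95% intervals were 2.45 to 3.98 and 2.04 to 3.301 CPM in the Ubn1 libraries and 0.163 to 0.744 and 0.326 to 0.870 in the control libraries, for counting error only and without TMM scaling. The log2 fold change after Ubn1 depletion was 2.55 (SE 0.39), a 5.87-fold difference that was already known when the gene was listed, so it is described here without a p. The differences of 0.75 after Hira depletion (SE 0.50, adjusted p = 0.264) and -0.26 after Ubn2 depletion (SE 0.64, adjusted p = 0.776) did not pass.

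Platr15 was 3.47-fold lower after Hira than after Ubn1 depletion (log2 fold change -1.80, SE 0.36) and 7.06-fold lower after Ubn2 than after Ubn1 depletion (-2.82, SE 0.46). The latter rested on few counts. Without Ubn2 replicate 1 it was -4.20 and without Ubn2 replicate 2, the library with 3 counts, it was -2.16. The nearest protein-coding genes did not share the difference. Acss1, an acetyl-CoA synthetase 36.0 kb away, stood at a log2 fold change of -0.33 after Ubn1 depletion (SE 0.11, adjusted p = 0.0585), and Entpd6, 42.2 kb away on the other side, had -0.02 (SE 0.11, adjusted p = 0.929). Of 13 genes tested within 250 kb after Ubn1 depletion, edgeR and DESeq2 called 0, and 3 had an unadjusted p under 0.05. As edgeR called only 3.09% of all genes there, 0 of 13 is no result about these neighbours.

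Platr3, at chr2:135648907-135652063 on the plus strand, was at 12.5 and 11.98 CPM in control cells, 12.9 and 11.9 CPM in Hira-depleted, 15.5 and 18.1 CPM in Ubn1-depleted and 14.2 and 12.1 CPM in Ubn2-depleted cells. Ubn1 libraries were the highest and all other groups overlapped. The log2 fold change after Ubn1 depletion was 0.46 (SE 0.15, adjusted p = 0.0497), a 1.37-fold difference below the size threshold. Its adjusted p lay just under 0.05 and was 0.0167 to 0.138 under other processing, and 0.194 to 0.288 without either control library or Ubn1 replicate 2. After Hira and Ubn2 depletion it was 0.01 (SE 0.15, adjusted p = 0.982) and 0.10 (SE 0.15, adjusted p = 0.609).

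Other Platr genes gave a wider view of ESC lncRNAs. Of 28 in the tables, 22 passed the filter on low counts. After Hira depletion 1 rose and 3 fell, against 16.2% of all genes called. The median log2 fold change of the 22 was -0.24, with 16 below 0. Platr26 fell by 1.80 on the log2 scale (SE 0.23, adjusted p = 5.05e-06), from 7.17 to 8.37 CPM in control cells to 2.00 to 2.56 CPM. Platr11 and Platr14 fell by 0.93 and 0.79. After Ubn2 depletion, where 18.3% of all genes were called, 4 rose and 2 fell, with a median of -0.014. Platr6 rose by 2.18 (SE 0.31, adjusted p = 1.15e-05), from 0.779 to 1.35 CPM in control cells to 3.87 to 6.16 CPM, and Platr17 rose by 0.70 while Platr11 fell by 0.90. After Ubn1 depletion 1 gene was called, against 3.09% of all genes. This was Platr23, at 0.80 (SE 0.25, adjusted p = 0.0448), a call lost under 5 of 11 alternatives, DESeq2 among them. The other called genes, named after their values were seen, were Platr5 after Hira depletion (1.47) and Platr7 (0.73), Platr23 (0.69) and Platr20 (-0.71) after Ubn2 depletion.

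**Figure D5:**
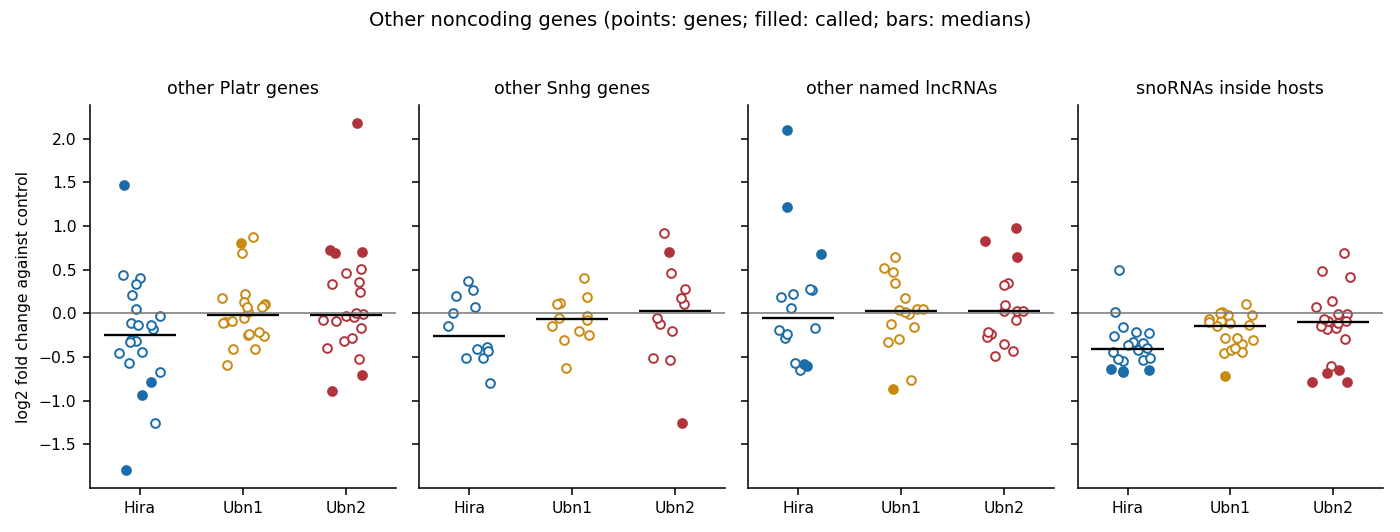
Log2 fold change against control (vertical axis, shared) of the other Platr genes, other Snhg genes, other named lncRNAs and the snoRNA genes inside the hosts, for Hira, Ubn1 and Ubn2 depletion; points are genes, filled points were called and bars are medians. Platr6 (2.18 after Ubn2 depletion) and Miat (2.10 after Hira depletion) are the highest points, and the snoRNA medians are -0.41, -0.14 and -0.10.

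The 4 snoRNA host genes showed smaller differences, none of which was called against control. Gas5, at chr1:161034422-161038539, was at 243 and 211 CPM in control cells. It was at 259 and 206 CPM in Hira-depleted, 184 and 225 CPM in Ubn1-depleted and 191 and 198 CPM in Ubn2-depleted cells. The Ubn2 libraries lay just below control and the other groups overlapped it. The log2 fold change after Ubn2 depletion was -0.22 (SE 0.07, adjusted p = 0.0226), which was -0.12 with an adjusted p of 0.311 without control replicate 1, and those after Hira and Ubn1 depletion were 0.02 (SE 0.10, adjusted p = 0.886) and -0.15 (SE 0.10, adjusted p = 0.394).

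Snhg1, at chr19:8723475-8726443, was at 81.7 and 72.4 CPM in control cells. It was at 122 and 91.8 CPM in Hira-depleted, 72.2 and 74.8 CPM in Ubn1-depleted and 94.9 and 92.2 CPM in Ubn2-depleted cells. Hira and Ubn2 libraries lay above control and Ubn1 libraries overlapped it. Log2 fold changes were 0.46 after Hira depletion (SE 0.10, adjusted p = 0.0015) and 0.28 after Ubn2 depletion (SE 0.08, adjusted p = 0.0059), both short of 1.5-fold, and -0.07 after Ubn1 depletion (SE 0.10, adjusted p = 0.739). The size after Hira depletion depended on 1 library. Without Hira replicate 2 it was 0.65 and Snhg1 was called, and without Hira replicate 1 it was 0.24 with an adjusted p of 0.0619. After Ubn2 depletion it was 0.19 with an adjusted p of 0.101 without control replicate 2.

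Snhg1 and Gas5 are hosts of the same kind, and their ratio within a library is free of scaling. There were 0.337 and 0.344 Snhg1 reads per Gas5 read in control cells and 0.393 and 0.333 after Ubn1 depletion. The ratio was 0.471 and 0.447 in Hira-depleted and 0.497 and 0.466 in Ubn2-depleted cells. Both groups stood above control and above Ubn1 depletion, without overlap. Between depletions, Snhg1 differed by 0.55 between Hira and Ubn1 depletion (SE 0.11, adjusted p = 0.000623) and by 0.35 between Ubn2 and Ubn1 depletion (SE 0.09, adjusted p = 0.0114), short of 1.5-fold. Without Hira replicate 2, the former was 0.74 and was called.

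Snhg3, at chr4:132348014-132353686 on the minus strand, was at 46.4 and 37.4 CPM in control cells and between 34.7 and 40.0 CPM in the 6 depleted libraries. Log2 fold changes were -0.13, -0.25 and -0.16 (SE 0.11 each) after Hira, Ubn1 and Ubn2 depletion, with adjusted p of 0.378, 0.181 and 0.259. Control replicate 1 stood above all other libraries. Gm17300, an opposite-strand lncRNA annotation, shares 705 exon bases with Snhg3 and had nearly the same levels, 47.6 and 38.4 CPM in control cells. Snhg3 also shares 135 exon bases with Rcc1, which encodes the exchange factor of the GTPase Ran. Without strand, reads of Snhg3 and Gm17300 cannot be told apart, and the level of Snhg3 is uncertain to that extent.

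Dancr, at chr5:74093060-74095406 on the plus strand, was at 14.8 and 15.8 CPM in control cells. It was at 10.3 and 14.5 CPM in Hira-depleted, 16.2 and 15.2 CPM in Ubn1-depleted and 17.1 and 15.6 CPM in Ubn2-depleted cells. Hira libraries were the lowest and lay 0.50 log2 units apart. The log2 fold change after Hira depletion was -0.34 (SE 0.16, adjusted p = 0.105). It was -0.60 and called without Hira replicate 2, and -0.10 without Hira replicate 1, so 1 library decided it. After Ubn1 and Ubn2 depletion it was 0.03 (SE 0.14, adjusted p = 0.924) and 0.09 (SE 0.13, adjusted p = 0.597).

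Of 20 annotated snoRNA genes inside the 4 hosts, 3 fell after Hira depletion, 1 after Ubn1 depletion and 4 after Ubn2 depletion, and none was called higher. Over all genes the shares called in either direction were 16.2%, 3.09% and 18.3%, so these counts are no result about the snoRNA genes. Their median log2 fold changes were -0.41, -0.14 and -0.099, with 18, 18 and 15 of 20 below 0. Snord78, inside Gas5, was called lower in each comparison, at -0.64 (SE 0.18, adjusted p = 0.00885), -0.72 (SE 0.19, adjusted p = 0.0143) and -0.79 (SE 0.18, adjusted p = 0.00165) after Hira, Ubn1 and Ubn2 depletion. It was at 8.93 to 10.9 CPM in control cells and 5.20 to 6.78 CPM in all depleted libraries. Gm26224, also inside Gas5, fell by 0.65 and 0.78 after Hira and Ubn2 depletion, and Gm22357 and Gm22489 inside Gas5 were the other calls after Ubn2 depletion. Snord22, inside Snhg1, fell by 0.67 after Hira depletion while Snhg1 itself stood above control. The calls of Snord78 after Hira and Ubn1 depletion and of Gm26224 and Snord22 after Hira depletion were lost under 2 or 3 of 11 alternatives. Nearly all of these snoRNAs lie within annotated exons of host isoforms with retained introns, so reads of the snoRNA and of its host cannot be told apart.

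Coding neighbours of Snhg3 and Snhg1 were examined beside their hosts. Trnau1ap, which acts in selenocysteine incorporation and lies 18.5 kb from Snhg3, fell by 0.76 after Hira depletion (SE 0.14, adjusted p = 0.000179). Slc3a2, an amino acid transporter subunit whose gene lies 106 bases from Snhg1, was at -0.41 on the log2 scale after Hira depletion (SE 0.08, adjusted p = 0.000283), opposite in sign to Snhg1 and short of 1.5-fold.

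Of 15 genes for snoRNP proteins, which bind and mature snoRNAs, 3 fell after Hira depletion, against 16.2% of all genes called. The median log2 fold change of the 15 was -0.38, with 13 below 0. The called genes were Nop10 at -0.69 (SE 0.09, adjusted p = 3.06e-06), Ruvbl2 at -0.63 (SE 0.07, adjusted p = 1.81e-06) and Nhp2 at -0.60 (SE 0.08, adjusted p = 5.41e-06). Nop10 and Nhp2 encode subunits of box H/ACA particles and Ruvbl2 an ATPase of snoRNP assembly. Without Hira replicate 1 only 1 of the 15 was called. After Ubn2 depletion 1 of the 15 was called, against 18.3% of all genes. This was Gar1, another box H/ACA subunit, which rose by 0.60 (SE 0.08, adjusted p = 5.78e-06), a call lost under 3 of 11 alternatives. After Ubn1 depletion edgeR and DESeq2 called 0 of the 15, and 5 had an unadjusted p under 0.05. Over all genes edgeR called 3.09% there.

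Of 16 nonsense-mediated decay factors, 1, 1 and 0 were called after Hira, Ubn1 and Ubn2 depletion, against 16.2%, 3.09% and 18.3% of all genes. Smg1, the kinase of Upf1, fell by 0.70 after Hira depletion (SE 0.08, adjusted p = 1e-06), from 217 to 242 CPM in control cells to 139 to 147 CPM. Magohb, an exon junction complex subunit, fell by 1.37 after Ubn1 depletion (SE 0.36, adjusted p = 0.0164) at a low level of 2.11 to 2.97 CPM in control cells, and this call was lost without control replicate 1 or Ubn1 replicate 1. After Ubn2 depletion edgeR and DESeq2 called 0 and 9 had an unadjusted p under 0.05. The medians were -0.0069, 0.082 and 0.15.

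Of 12 other Snhg genes, edgeR and DESeq2 called 0 after Hira depletion, with 5 at an unadjusted p under 0.05, and 0 after Ubn1 depletion, with 2. After Ubn2 depletion Snhg15 rose by 0.70 (SE 0.12, adjusted p = 6.37e-05), from 17.6 to 21.3 CPM in control cells to 30.7 to 32.0 CPM. Snhg18 fell by 1.26 (SE 0.40, adjusted p = 0.0155), from 1.46 to 1.98 CPM to 0.714 to 0.736 CPM, and this call was lost under 4 of 11 alternatives. The medians were -0.26, -0.064 and 0.028. Over all genes the shares called were 16.2%, 3.09% and 18.3%.

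Other named lncRNAs with known roles included larger differences than those of the 9 genes, apart from Platr15. Of 19 in the tables, among them Tunar and Sra1, which GENCODE M21 classes as protein-coding, 16 passed the filter. After Hira depletion 3 rose and 2 fell, against 16.2% of all genes called. Miat, a nuclear lncRNA of the nervous system, rose by 2.10 (SE 0.24, adjusted p = 1.44e-06), from 1.70 to 2.09 CPM in control cells to 6.88 to 9.20 CPM. Tunar, a neural lncRNA also expressed in pluripotent cells, rose by 1.22 (SE 0.28, adjusted p = 0.00172). The summed neural markers were higher in the same libraries, and their part in these values was not tested. Firre, an X-linked nuclear-organizing lncRNA, fell by 0.59 (SE 0.09, adjusted p = 5.25e-05), a call lost under 4 of 11 alternatives. The remaining calls were Tsix, higher by 0.68, and Kcnq1ot1, at -0.60 on the log2 scale.

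After Ubn2 depletion 3 of these 16 genes rose, against 18.3% of all genes called. Meg3, the maternally expressed RNA of the Dlk1-Dio3 imprinted cluster, was at 311 to 333 CPM in control cells and 617 to 652 CPM after Ubn2 depletion, a log2 fold change of 0.98 (SE 0.07, adjusted p = 1.46e-09) that was called under all 11 alternatives. Tsix, antisense to Xist, rose by 0.82 (SE 0.17, adjusted p = 0.000692). The strand setting was not given, so reads of Tsix and Xist cannot be told apart where they overlap, here and after Hira depletion. Mir22hg, a microRNA host, rose by 0.64 (SE 0.23, adjusted p = 0.0289), a call lost under 3 of 11 alternatives. After Ubn1 depletion Kcnq1ot1, the antisense RNA of the Kcnq1 imprinted domain, fell by 0.87 (SE 0.15, adjusted p = 0.000366), from 16.4 to 21.4 CPM in control cells to 10.3 to 10.4 CPM, under all 11 alternatives. It was the only 1 of the 16 called there, against 3.09% of all genes.

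The genes whose levels followed each lncRNA most closely were sought over the 8 libraries among 19263 others, by Pearson correlation of log2 CPM. The libraries form 4 groups and share scaling, so these coefficients are descriptions. For Neat1 they were its own fragment Gm27533 (r = 0.997) and Glrx, which encodes glutaredoxin (r = 0.991). For Malat1 they were Eif4ebp3, a translation repressor of the 4E-BP family, and Gm28809 (both r = 0.983). For Lncenc1, Exosc5, a subunit of the RNA exosome, is given (r = 0.986). For Platr15 they were Itpripl1 (r = 0.953) and AC125059.3 (r = 0.949), and for Platr3 Hspg2, which encodes perlecan (r = 0.952), and Zmynd11 (r = 0.941). Among the hosts, Snhg3 was followed by Gm17300 (r = 0.983) and Zbtb37 (r = 0.939), Gas5 by Ppp4r1l-ps (r = 0.969) and Lbp (r = 0.961), Snhg1 by Gm44731 (r = 0.974) and Zfp541 (r = 0.964), and Dancr by Gm2420 (r = 0.974) and Pa2g4 (r = 0.964). Mean levels were low for Lbp (0.946 CPM), Gm44731 (0.348 CPM), Zfp541 (0.544 CPM) and Gm2420 (0.689 CPM), so counting error weighs on their coefficients. The number of genes above r = 0.9 ranged from 8 for Snhg3 to 358 for Neat1.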

How the data were processed

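RNA-seq was measured in 8 mouse E14 ESC libraries, 2 each of control cells and cells depleted of Hira, Ubn1 or Ubn2. Per the labels and the study's methods, the authors trimmed reads with Trim Galore, aligned them with STAR to GRCm38 and counted them on genes with featureCounts. Versions, strand setting and treatment of multiply mapping or overlapping reads were not given in the sources used here. The authors deposited raw counts for 55418 genes in 3 tables that repeat the control libraries, with 0 differing values, so controls were used once. Symbols were matched to GENCODE M21, 55303 to a single gene and 115 to several.

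Each pair of groups was fitted on its 4 libraries with edgeR 4.0.16 in R 4.3.3 (TMM, filterByExpr, quasi-likelihood test, Benjamini-Hochberg adjustment over all genes tested). Calls needed both an adjusted p below 0.05 and more than 1.5-fold change. Standard errors (SE) were obtained from each log2 fold change and the root of its quasi-likelihood F. CPM used TMM-scaled library sizes, with factors of 0.970 to 1.06. Totals of 19710040 to 32706053 counts set the depth, and 3 counts, the limit a count of 0 allows, correspond to 0.0917 to 0.152 CPM before TMM scaling, for counting error only.

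The 9 genes, the gene lists and the tests were chosen with earlier results of these data known. Named were the 9 genes, the targeted genes, up to 3 called genes with the smallest adjusted p per list and comparison with control, nearest coding neighbours and the 2 genes most alike to each. Fragments inside or overlapping these genes and Slc25a45 were named after their values were seen. Some genes that this rule names are not reported here. Alternatives were calls by adjusted p alone, DESeq2 1.42.0, its size factors in edgeR, no filter, at least 10 counts in every library, 1 fit of all 8 libraries, a replicate block and leaving out each library. The fits were tested on simulated counts. Summaries used pandas 2.3.3, numpy 2.4.6 and scipy 1.17.1 under Python 3.11.15, and plots used matplotlib 3.10.9. No per-sample column was left unused.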

Additional observations from a re-analysis of the deposited data

Results flagged for a closer look

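Effects of depletion that differed from each other directly are given here, each from the test between the depletions themselves with edgeR and Benjamini-Hochberg adjustment, and each seen in 2 of 2 libraries on either side. Neat1 differed in all 3 pairs, by 1.62 between Hira and Ubn2 depletion (adjusted p = 2.75e-07), by 0.71 between Hira and Ubn1 depletion (adjusted p = 0.000112) and by -0.92 between Ubn2 and Ubn1 depletion (adjusted p = 5.21e-06), on the log2 scale. Malat1 differed by -0.83 between Hira and Ubn2 depletion (adjusted p = 3.57e-05). Lncenc1 differed by -0.80 between Hira and Ubn2 depletion (adjusted p = 2.75e-06) and by -0.79 between Hira and Ubn1 depletion (adjusted p = 2.57e-06). Platr15 differed by -1.80 between Hira and Ubn1 depletion and by -2.82 between Ubn2 and Ubn1 depletion, with 3 counts in the lowest library. These genes were listed with such results known, so their p-values are descriptions and not independent evidence.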

How the results depend on the processing

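With calls by adjusted p alone, 4, 3 and 5 of the 9 genes passed after Hira, Ubn1 and Ubn2 depletion, and 6 and 4 between Hira and Ubn1 and between Ubn2 and Ubn1 depletion. Over all genes this rule gave 6644, 1426, 7118, 6641, 4582 and 3019 calls, against 3077, 568, 3343, 3264, 2386 and 1584 (Hira, Ubn1 and Ubn2 against control, Hira against Ubn2, Hira against Ubn1, Ubn2 against Ubn1). DESeq2 called 0 of the 9 after Ubn1 depletion, where it gave Platr15 no adjusted p, and 295 genes there and 1022 between Ubn2 and Ubn1 depletion. At 10 counts in every library Platr15 was not tested, leaving 0 calls after Ubn1 depletion and 1 between Ubn2 and Ubn1 depletion. Leaving out 1 library gave 1 to 3 of the 9 after Hira depletion, 3 to 5 between Hira and Ubn1 depletion, the most without Hira replicate 2, and 350 to 688 genes after Ubn1 depletion, the fewest without control replicate 1. Neat1 stayed between 0.70 and 1.17 after Hira and between -0.68 and -0.61 after Ubn2 depletion, and Platr15 between 2.36 and 2.88 after Ubn1 depletion. Platr3 after Hira depletion, near 0, changed sign with DESeq2 (-0.0091), its size factors (-0.0023), no filter (-0.0062) and the replicate block (-0.00016). Leaving out a library also turned signs of uncalled values, over ranges after Hira depletion of -0.057 to 0.053 (Platr3), -0.16 to 0.17 (Gas5) and -0.28 to 0.025 (Snhg3), after Ubn1 depletion of -0.16 to 0.023 (Snhg1) and -0.025 to 0.083 (Dancr), and after Ubn2 depletion of -1.64 to 0.40 (Platr15) and -0.015 to 0.21 (Platr3). The ranges were -0.18 to 0.041 (Platr3), -0.021 to 0.39 (Snhg1) and -0.045 to 0.16 (Snhg3) for Hira against Ubn2, and -0.066 to 0.091 (Lncenc1), -0.21 to 0.075 (Gas5), -0.021 to 0.19 (Snhg3) and -0.011 to 0.13 (Dancr) for Ubn2 against Ubn1. The cause was not tested. Libraries with the same replicate number share only a number (correlations -0.0529 to 0.0664); with the block, Platr15 stood at 2.55 after Ubn1 depletion, no call among the 9 changed, and 733 genes were called in place of 568. Where a lone library was left, it was assumed to vary like the other group. At 3 to 22 counts outside the Ubn1 libraries, depth limits what can be said of Platr15.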
